A study of Mus musculus with 24 samples.

Results

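Primary microglia without CD14 were compared with wild-type microglia after both had received a high dose of lipopolysaccharide (LPS). The comparison rests on the 6 of 24 libraries of the series that belong to the high dose, with 6 more libraries of untreated cells to measure the response of each genotype. KO cells came from the strain B6.129S4-Cd14tm1Frm/J, in which Cd14 is disrupted in every cell of the animal, and WT cells from C57BL/6. Both were primary microglial cells with the age given as p0. Stimulated cultures of either genotype received Re-LPS, a rough form that lacks the O-antigen chain, for 3 h at 10 ng/ml. The 4 groups are therefore KO at LPS 10 ng/ml, WT at LPS 10 ng/ml, untreated KO and untreated WT, with 3 libraries each. The series describes 3 independent preparations per condition and gives neither the sex nor the number of animals behind a preparation. The p-values measure the spread between these libraries.

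CD14 is a membrane-anchored and soluble protein of monocytes, macrophages and microglia that binds LPS and passes it to the receptor complex of TLR4 and MD-2. From the plasma membrane this complex signals through the adaptor MyD88 to NF-kB and MAP kinases, and after uptake into endosomes through TRIF to IRF3, which helps to switch on the interferon beta gene. Interferon beta then acts back on the cells through its receptor and induces a large group of interferon-stimulated genes. CD14 is known to take part in both routes and in the uptake of TLR4.

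Total counts in the 12 libraries ran from 14973622 to 20412902, and a minimum on counts left 13294 of the 18919 genes in the table. Levels are given in CPM, the counts of a gene scaled to libraries of 1e+06 counts after TMM scaling (trimmed mean of M-values), and differences as log2 fold changes ± standard error. Calls are genes with an adjusted p under 0.05 in edgeR's quasi-likelihood test with Benjamini-Hochberg adjustment. The TMM factors were 0.804 to 0.972 in stimulated KO cells, 0.668 to 0.77 in stimulated WT cells, 1.20 to 1.35 in untreated KO cells and 1.18 to 1.30 in untreated WT cells. Scaling by total counts instead moved the median of all genes between the genotypes at LPS 10 ng/ml to 0.35, against 0.03 with TMM. The ribosomal RNA precursor gene Rn45s made up 5.92% of WT LPS 10 ng/ml replicate 3 and at most 0.785% of the other 11 libraries. Libraries with replicate number 1 stood apart in every group, with the glycolytic gene Gapdh at 45.7 to 58.5 CPM in the 4 of them and at 0.592 to 2.52 CPM in the other 8. The cause of this split was not tested, and these counts are not read as the level of Gapdh RNA in the cells.

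Cd14 was checked first. It stood at 6.37, 4.84 and 3.32 CPM in KO libraries at LPS 10 ng/ml, against 5329, 3779 and 2349 CPM in WT libraries. Every KO library carried a trace, whose place in the gene was not analysed here, and the groups were far apart (-9.62 ± 0.68, edgeR adjusted p = 1.2e-07). LPS raised Cd14 in WT cells (2.43 ± 0.49, adjusted p = 3.8e-04), while the KO change of 0.30 ± 0.50 was not called (adjusted p = 0.72). Before stimulation Cd14 was the 1 gene that edgeR called between the genotypes (0.00752% of 13294), and 130 genes had an unadjusted p below 0.05.

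Markers of microglia and macrophages were present in both genotypes. Their 13 genes summed to 12855, 12078 and 10956 CPM in KO cells and 14685, 13375 and 12672 CPM in WT cells at LPS 10 ng/ml. Astrocyte markers summed to 11.7 to 30.5 CPM in KO cells and 21.1 to 56.1 CPM in WT cells, with 10 of 12 genes tested and none called. Oligodendrocyte lineage markers summed to 157 to 213 CPM in KO cells, below the 226 to 490 CPM of WT cells, and 1 of 12 tested genes was called, the myelin enzyme gene Cnp (-1.23 ± 0.22, adjusted p = 8.5e-04). The log2 change of Cnp with LPS 10 ng/ml was 1.14 in WT cells and 0.13 in KO cells. The medians of the 12 genes were 0.295 in WT cells and 0.103 in KO cells, and none had a called interaction. Neuron markers summed to 6.17 to 149 CPM in KO cells and 11.8 to 59.7 CPM in WT cells, with none of 11 called. Of the 15 markers of other leukocytes 2 were tested, Cd4 and Klrb1c, and neither was called, and of the 13 vascular and fibroblast markers 5 were tested with none called. In bulk RNA, fewer cells of a type and less RNA per cell cannot be told apart, and the part of these other cells in the results was not tested. The Y-linked gene Ddx3y was higher in KO cells at LPS 10 ng/ml (83.1 to 115 CPM, against 22.1 to 51.9 CPM in WT cells; 1.38 ± 0.37, adjusted p = 0.015), a call that ended without WT LPS 10 ng/ml replicate 2 (adjusted p = 0.0809). Xist, transcribed from the inactive X chromosome, overlapped between the genotypes and was not called (log2 difference -0.94). The Y-linked gene Eif2s3y was not called either (1.04). Of 5 tested sex-linked genes 1 was called (8.05% of all genes were higher). In 3 of the 5 every KO library lay above every WT library, beside 14.1% of all genes. The part of sex in the results was not tested.

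At LPS 10 ng/ml the genotypes differed in 2114 of 13294 genes (15.9%). KO cells had the higher level in 1070 (8.05%) and the lower in 1044 (7.85%). Among the lower genes were 33 of 47 interferon-stimulated genes, the transcription factor gene Irf8 and the chemokine genes Ccl7, Cxcl9 and Cxcl11, and among the higher ones the transcription factor genes Cebpa and Lyl1 and the receptor genes Cd300lb and S1pr1. With total-count scaling 4097 genes were called, 3448 higher and 649 lower. A fit of the 6 LPS libraries alone called 253 higher and 551 lower. The balance of the directions thus depends on the scaling and on the libraries fitted. A block for the replicate number gave 3337 calls, and leaving out KO LPS 10 ng/ml replicate 3 gave 1290. The libraries of the genotypes did not overlap in 3545 genes (26.7%), with KO above WT in 1872 (14.1%) and below it in 1673 (12.6%).

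The responses themselves were compared by an interaction, the log2 change from untreated to LPS 10 ng/ml in KO cells less the same change in WT cells. It was called in 702 genes (5.28%), with the KO response more negative in 441 (3.32%) and more positive in 261 (1.96%). Among the 441, 246 genes rose in both genotypes and 124 were called only in WT cells, where they rose. A further 32 rose in WT cells and fell in KO cells, 34 were called only in KO cells, where they fell, and 5 fell in both. Of the 261 genes on the other side, 94 fell in both genotypes, 83 were called only in WT cells, where they fell, and 25 fell in WT cells and rose in KO cells. The remaining 42 were called only in KO cells and 17 rose in both. The largest class on either side was thus a change that both genotypes made and that was smaller in KO cells. The interaction count was 1280 with the replicate block, 2887 with a block nested in the genotype, 428 without KO LPS 10 ng/ml replicate 3 and 467 without WT untreated replicate 1, and total-count scaling gave 927 more positive and 265 more negative.

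In all, LPS 10 ng/ml changed 5697 genes in KO cells (42.9%) and 6570 in WT cells (49.4%). KO cells had 2819 rises (21.2%) and 2878 falls (21.6%), and WT cells 3097 rises (23.3%) and 3473 falls (26.1%). With total-count scaling the KO split was 1502 rises and 5630 falls and the WT split 1444 and 7408. These 2 counts share no library, and each was made against the untreated cells of its own genotype.

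**Figure D1:**
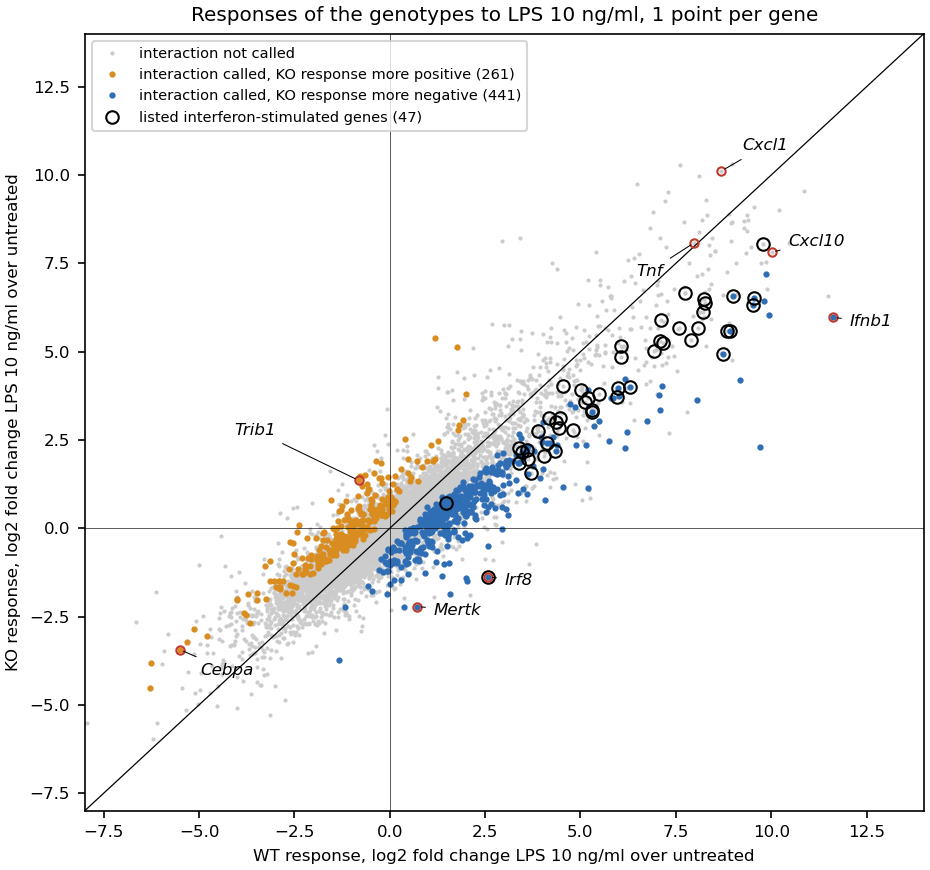
Log2 fold change of LPS 10 ng/ml over untreated cells in KO microglia (vertical axis) against that in WT microglia (horizontal axis), with 1 point for each of 13294 genes and the diagonal marking equal responses. Blue points, 441 genes with a more negative KO response, lie under the diagonal and include part of the 47 ringed interferon-stimulated genes; Tnf lies near the diagonal, Irf8 and Mertk under it and Cebpa and Trib1 (red rings, with other named genes) above it.

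The receptor side was examined first, on a list of 21 tested genes of LPS reception. Of these, 2 were higher (8.05% of all genes were) and 5 lower (7.85%) in KO cells, with a median of -0.07 beside 0.03 over all genes. With total-count scaling the list's median was 0.27, beside 0.35 over all genes. Tlr4 itself stood at 88.9, 39.5 and 45.8 CPM in KO cells and 77.3, 94.5 and 58.0 CPM in WT cells, which overlap (-0.40 ± 0.32, adjusted p = 0.50). Cd180, which encodes a TLR4-related receptor without a signalling domain, stood at 242, 197 and 186 CPM in KO cells, against 629, 741 and 515 CPM in WT cells (-1.59 ± 0.23, adjusted p = 1.1e-04). Irf5, a transcription factor of MyD88 signalling, stood at 436, 429 and 363 CPM in KO cells and at 874, 787 and 807 CPM in WT cells (-1.01 ± 0.12, adjusted p = 1.8e-05). For both Cd180 and Irf5 all KO libraries lay below all WT libraries. On the higher side was Ticam2, which encodes TRAM, the adaptor that links endosomal TLR4 to TRIF, at 53.5, 37.0 and 46.7 CPM in KO cells against 27.9, 19.1 and 13.5 CPM in WT cells (1.18 ± 0.28, adjusted p = 0.0068). Irak3, an inhibitory kinase of the pathway, was higher by 0.87 ± 0.23 (adjusted p = 0.013), a call that ended without WT LPS 10 ng/ml replicate 2 (adjusted p = 0.0662) or 3 (0.0579). The count of 5 lower genes was 2 without KO LPS 10 ng/ml replicate 3 and 3 without WT LPS 10 ng/ml replicate 3.

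NF-kB genes were induced with and without CD14. Of 25 tested subunits and feedback inhibitors, 24 rose with LPS 10 ng/ml in KO cells (21.2% of all genes rose) and 24 in WT cells (23.3%), with median responses of 3.72 in KO cells and 3.78 in WT cells, and 1 of 25 had a called interaction. Nfkbia, which encodes the inhibitor IkB alpha, stood at 1193, 1109 and 1307 CPM in KO cells and 1388, 1107 and 1433 CPM in WT cells. The groups overlapped (-0.12 ± 0.22, adjusted p = 0.85; 95% interval -0.60 to 0.35). Between the genotypes 3 of the 25 were lower in KO cells, beside 7.85% of all genes, and none higher (median -0.34, beside 0.03 over all genes). These 3 were Socs1, Zfp36 and Bcl3. In 13 of the 25 every KO library lay below every WT library, beside 12.6% of all genes. In 1 of the 25 every KO library lay above, beside 14.1%. Socs1, a feedback inhibitor of cytokine receptors that interferons also induce, was at 147, 42.7 and 31.8 CPM in KO cells against 326, 221 and 318 CPM in WT cells (-1.97 ± 0.56, adjusted p = 0.022). Tnfaip3, the ubiquitin-editing inhibitor A20, was at 2339.8, 1682 and 2126 CPM in KO cells, below the 3919, 3459 and 4015 CPM of WT cells, and just missed the call (-0.89 ± 0.30, adjusted p = 0.054, and 0.0188 with the replicate block). The count of 3 rose to 7 with the replicate block and also when a stricter CPM filter removed scarce genes. It was 6 with DESeq2, and 5 with limma on the normalized signal or in a fit of the 4 groups alone. The count fell to 0 without KO LPS 10 ng/ml replicate 2 or WT LPS 10 ng/ml replicate 3. It was 1 without KO LPS 10 ng/ml replicate 3 or WT LPS 10 ng/ml replicate 1. The call of Socs1 ended without KO LPS 10 ng/ml replicate 2 (adjusted p = 0.0997) or 3 (0.114), and likewise when WT LPS 10 ng/ml replicate 1 (0.0588) or 3 (0.0544) was left out.

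Of 28 tested immediate early and MAP kinase feedback genes, 2 were higher and 3 lower in KO cells, shares near the 8.05% and 7.85% of all genes. The list's median was -0.20, and 0.11 with total-count scaling, beside 0.03 and 0.35 over all genes. Dusp1, a phosphatase that shuts off MAP kinases, had 69.7, 44.2 and 56.0 CPM in KO cells, below the 188, 148 and 188 CPM in WT cells (-1.62 ± 0.28, adjusted p = 4.4e-04), and its response was smaller (interaction -1.96 ± 0.38, adjusted p = 0.0050). Atf3, a transcriptional repressor of inflammatory genes, was lower as well, at 786, 543 and 374 CPM in KO cells against 1354, 1274 and 1414 CPM in WT cells (-1.25 ± 0.24, adjusted p = 0.0011). Dusp4, another MAP kinase phosphatase gene, and Myc were the 2 higher genes, by 1.47 ± 0.35 (adjusted p = 0.0065) and 1.51 ± 0.36 (adjusted p = 0.0070). Without KO LPS 10 ng/ml replicate 3 both calls ended (adjusted p = 0.0513 for Dusp4 and 0.0627 for Myc), and without KO LPS 10 ng/ml replicate 1 the list had 5 lower genes, as it had with the replicate block.

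Among cytokine genes some differed between the genotypes and the early ones were not called. Tnf, the early pro-inflammatory cytokine, stood at 6929, 5036 and 6862 CPM in KO cells and 7401, 6164 and 6379 CPM in WT cells, and Il1b at 7149, 5839 and 7792 CPM in KO cells and 5019.5, 3696 and 7119.6 CPM in WT cells. Both overlapped between the genotypes and neither was called (Tnf -0.08 ± 0.42, adjusted p = 0.97; Il1b 0.39 ± 0.41, adjusted p = 0.64). The 95% interval of the difference ran from -0.98 to 0.81 for Tnf and from -0.47 to 1.26 for Il1b, so equal levels are not shown. Il12b, for the p40 chain that IL-12 shares with IL-23, was not called either (-0.89 ± 0.55, adjusted p = 0.34).

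In all, 6 of 22 tested cytokine genes were lower in KO cells, beside 7.85% of all genes, and 1 was higher, beside 8.05% (median -0.49, and 0.03 over all genes). Il27, which encodes a subunit of IL-27, stood at 231, 166 and 135 CPM in KO cells against 786, 725 and 731 CPM in WT cells (-2.08 ± 0.37, adjusted p = 6.7e-04; interaction -2.67 ± 0.58, adjusted p = 0.011). Il15, a growth factor of natural killer and T cells, was at 143, 139 and 94.7 CPM in KO cells against 478, 423 and 629 CPM in WT cells (-2.02 ± 0.30, adjusted p = 1.5e-04). No KO library reached the lowest WT library for either. Il6 was at 336, 151 and 109 CPM in KO cells and 583, 497 and 768 CPM in WT cells (-1.64 ± 0.53, adjusted p = 0.042). This call ended in a fit of the 6 LPS libraries alone (adjusted p = 0.0822), without KO LPS 10 ng/ml replicate 2 (0.146) or 3 (0.194), and when WT LPS 10 ng/ml replicate 1 (0.0745), 2 (0.0592) or 3 (0.12) was left out. The 1 higher gene was Gdf15, a stress-induced member of the TGF-beta family, at 14.6, 13.2 and 65.1 CPM in KO cells against 6.61, 8.6 and 3.76 CPM in WT cells, and its call ended without KO LPS 10 ng/ml replicate 3 (adjusted p = 0.389) or any WT LPS 10 ng/ml library (0.0667 to 0.132).

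Of the CC chemokines, Ccl7, which attracts monocytes, stood at 112, 69.2 and 125 CPM in KO cells, against 857, 826 and 759 CPM in WT cells (-3.00 ± 0.45, adjusted p = 1.4e-04). It rose in both genotypes, by 6.45 ± 0.54 in KO cells and 9.80 ± 0.62 in WT cells (interaction -3.35 ± 0.68, adjusted p = 0.0065). Ccl3 and Ccl4, which attract monocytes and other leukocytes, were not called, with Ccl3 at 5964, 5021 and 6504 CPM in KO cells and 7257, 6029 and 8517 CPM in WT cells. Ccl2, the main ligand of CCR2, was at 1010.3, 405 and 562 CPM in KO cells against 2705, 2361 and 2595 CPM in WT cells (-1.95 ± 0.56, adjusted p = 0.023). Its call ended without KO LPS 10 ng/ml replicate 2 (adjusted p = 0.0996) or 3 (0.0982), and when WT LPS 10 ng/ml replicate 1 (0.0538) was left out. In this class 3 of 8 tested genes were lower in KO cells, beside 7.85% of all genes (median -1.30); the count was 1 without KO LPS 10 ng/ml replicate 3 and 5 with the replicate block.

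Among the chemokines that attract neutrophils, Cxcl1 stood at 411, 373 and 678 CPM in KO cells, each above the 198, 99.1 and 165 CPM of the WT libraries. The difference just missed the call (1.66 ± 0.58, adjusted p = 0.062) and passed with the replicate block (adjusted p = 0.0123), with DESeq2 (0.0278) and in limma on the normalized signal (0.0405). Cxcl2 stood at 4045, 2018 and 3211 CPM in KO cells and 1551, 970.0 and 894 CPM in WT cells, again without overlap and uncalled (1.44 ± 0.79, adjusted p = 0.27, and 0.032 with the replicate block). Of 5 tested genes 1 was called (8.05% of all genes were higher), the scarce Cxcl5, at 1.17, 1.71 and 3.32 CPM in KO cells and 0.248, 0.299 and 0.184 CPM in WT cells, and that call ended without any 1 of the LPS libraries but KO replicate 1 (adjusted p 0.0538 to 0.142).

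The ligands of CXCR3, which attract T cells and are interferon-inducible, were all lower in KO cells. Cxcl10 stood at 5182, 3721 and 1156 CPM in KO cells, against 13772, 11008 and 15309 CPM in WT cells (-1.99 ± 0.53, adjusted p = 0.014). KO replicate 3 was the lowest, and without it the call ended (adjusted p = 0.07). Cxcl9 was at 83.5, 73.0 and 28.0 CPM in KO cells against 642, 559 and 1191 CPM in WT cells (-3.70 ± 0.64, adjusted p = 5.8e-04). Cxcl11, which GENCODE annotates as a polymorphic pseudogene, was at 15.0, 14.5 and 3.32 CPM in KO cells against 130.1, 132 and 240.0 CPM in WT cells (-3.93 ± 0.57, adjusted p = 1.1e-04; interaction -5.00 ± 0.88, adjusted p = 0.0026). Ccl5, which attracts T cells, was below WT in every KO library yet not called (-1.19 ± 0.54, adjusted p = 0.16, and 0.0301 with the replicate block). In all, 3 of 7 tested genes were lower, beside 7.85% of all genes (median -1.37), 5 of 7 with the replicate block.

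**Figure D2:**
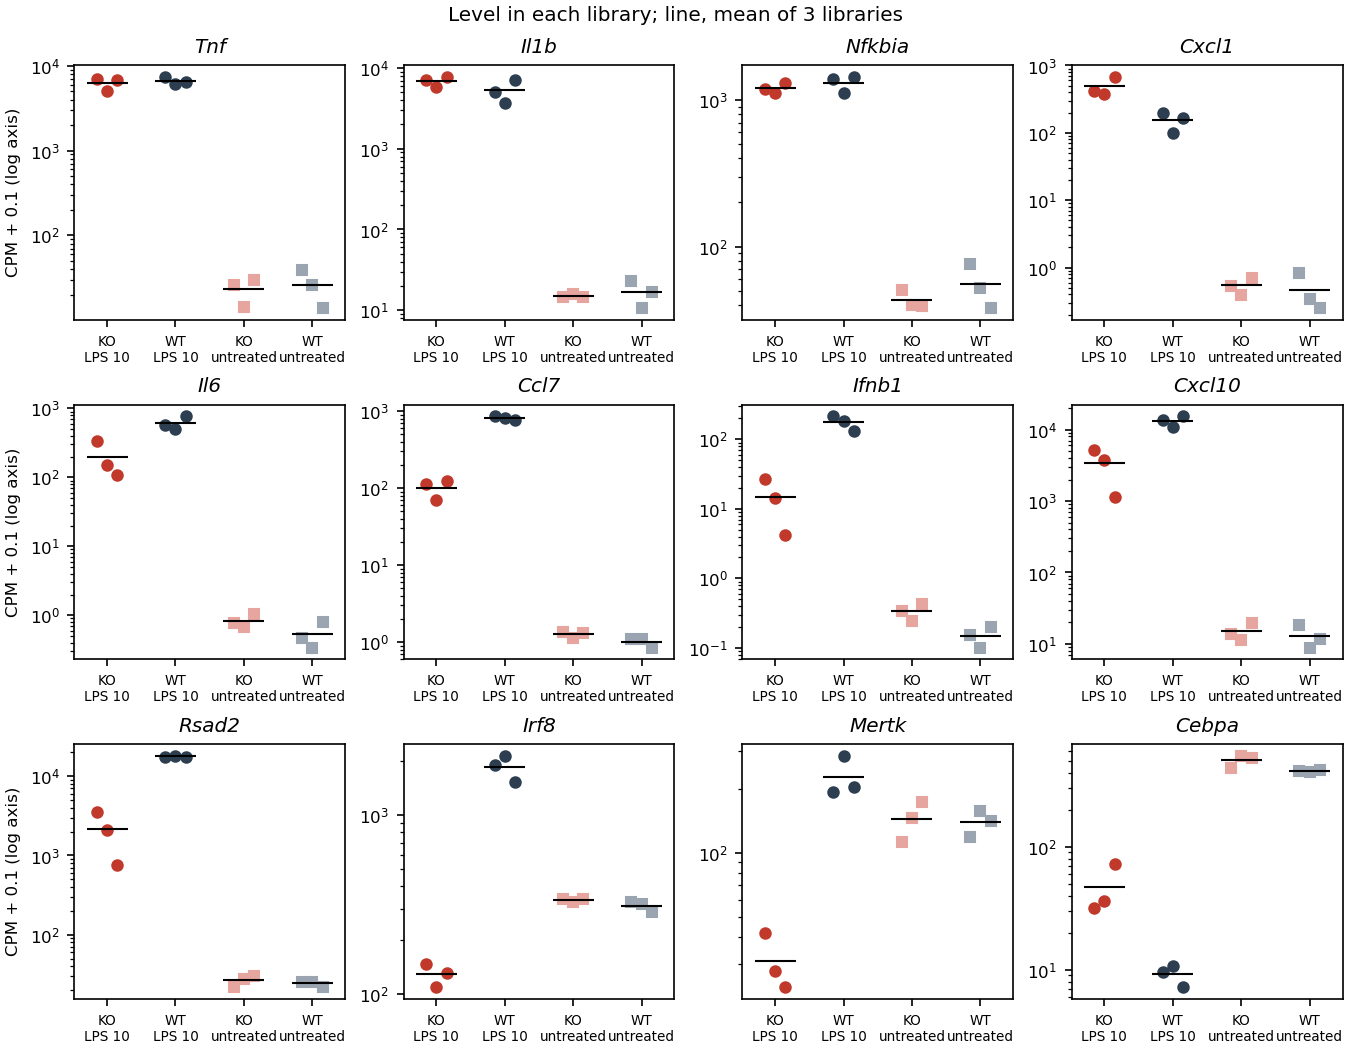
Level of 12 genes in each library (CPM plus 0.1, log axis), with KO to the left of WT at LPS 10 ng/ml (circles) and untreated (squares), libraries 1 to 3 from left to right and a line at the mean of 3. Tnf, Il1b and Nfkbia overlap between the genotypes at LPS 10 ng/ml, Cxcl1 and Cebpa are higher in every KO library, and the other 7 are lower in every KO library.

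Ifnb1, the interferon beta gene itself, stood at 26.5, 14.3 and 4.13 CPM in KO cells at LPS 10 ng/ml, against 214, 185 and 133 CPM in WT cells (-3.57 ± 0.63, adjusted p = 6.3e-04). All KO libraries lay below the lowest WT library, and KO replicate 3 was again the lowest. LPS still raised Ifnb1 in KO cells (5.97 ± 0.77, adjusted p = 5.5e-06). In WT cells its 6520 counts at LPS 10 ng/ml stood against 3 counts in the untreated libraries, a ratio of 3624 (counting error alone puts it between 1240 and 17580 at 95%). The response was smaller in KO cells (interaction -5.65 ± 1.29, adjusted p = 0.014). Its receptor chain gene Ifnar1 did not differ by call, at 481, 408 and 547 CPM in KO cells and 574, 491 and 499.8 CPM in WT cells (-0.12 ± 0.13, adjusted p = 0.65).

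Interferon-stimulated genes were the group with the most lower members. Of 47 tested, 33 were lower in KO cells, beside 7.85% of all genes, and none was higher, with a median of -1.76 beside 0.03 over all genes. In 45 of 47 every KO library lay below every WT library, beside 12.6% of all genes. All 47 rose with LPS 10 ng/ml in WT cells (23.3% of all genes rose) and 43 rose in KO cells (21.2%), with median responses of 3.91 in KO cells and 5.48 in WT cells. The interaction was called in 13, all with a smaller KO response (3.32% of all genes). This list was drawn up with earlier results of these data known, so its direction is not independent evidence.

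Rsad2, the antiviral enzyme viperin, stood at 3507, 2112 and 762 CPM in KO cells, against 17612, 18054 and 17554 CPM in WT cells (-3.06 ± 0.48, adjusted p = 2.2e-04; interaction -3.18 ± 0.64, adjusted p = 0.0064). Its neighbour Cmpk2, a mitochondrial nucleotide kinase, stood at 1152, 722 and 304 CPM in KO cells against 6172, 6734 and 7853 CPM in WT cells (-3.25 ± 0.45, adjusted p = 7.7e-05; interaction -3.33 ± 0.61, adjusted p = 0.0031). For both genes the WT libraries were tight and the KO libraries spread over a wide range. Iigp1, an immunity-related GTPase, had the largest difference of the list, at 31.5, 21.5 and 8.61 CPM in KO cells against 253, 349.8 and 458 CPM in WT cells (-4.11 ± 0.59, adjusted p = 1.1e-04). Gbp4, a guanylate-binding protein gene outside the list, was lower by a similar size (-3.95 ± 0.68, adjusted p = 5.7e-04). Uncalled members included Ifit3, at 711, 361 and 71.3 CPM in KO cells against 2156, 1083 and 1633 CPM in WT cells (-2.09 ± 0.75, adjusted p = 0.069, and 0.00428 with the replicate block), and Slfn2, a regulator of immune cell quiescence (-0.43 ± 0.21, adjusted p = 0.20). Ifit3, Iigp1 and Gbp4 belong to families with near-identical copies, so their counts are uncertain where reads could be shared.

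The KO libraries differed among themselves in this group. The 47 genes summed to 30577, 23176 and 12265 CPM in KO replicates 1, 2 and 3, against 86840, 81439 and 94457 CPM in WT replicates 1, 2 and 3. KO replicate 3 was the lowest KO library in 45 of the 47 genes, beside 4735 of 13294 genes overall. The median log2 difference of KO and WT libraries with the same replicate number, on log2(CPM + 0.5), was -1.21 for number 1, -1.32 for number 2 and -3.10 for number 3. These go by the number in the labels and need not compare matched preparations. KO 2 correlated better with WT 3 (0.731) than with WT 2 (0.484), and KO 3 with WT 2 (0.370) than with WT 3 (0.237). Without KO replicate 3 the number of lower genes was 25 of 47, in a fit of the 6 LPS libraries alone it was 20, and with the replicate block 43.

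Usp18, an interferon-induced brake on the receptor, stood at 191, 143 and 51.0 CPM in KO cells against 511, 480.4 and 648 CPM in WT cells (-2.09 ± 0.43, adjusted p = 0.0024). Ifngr1, a chain of the interferon gamma receptor, was the 1 higher gene among 12 of interferon ligands and receptor signalling, at 331, 308 and 319.9 CPM in KO cells against 204, 169.8 and 192 CPM in WT cells (0.76 ± 0.14, adjusted p = 9.7e-04). In that list 5 genes were lower, beside 7.85% of all genes, 3 without any 1 of the KO libraries or WT LPS 10 ng/ml replicate 1, and 2 without WT LPS 10 ng/ml replicate 3.

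Irf8 had the smallest p-value among the 13294 genes of the comparison. It encodes a transcription factor of the macrophage and microglial lineage that interferons also induce. It stood at 147, 109 and 132 CPM in KO cells, against 1896, 2141 and 1534 CPM in WT cells (-3.84 ± 0.16, adjusted p = 4.5e-11). Untreated cells held 342, 326 and 339 CPM in KO and 326, 320.1 and 287 CPM in WT, a narrow band. LPS 10 ng/ml therefore lowered Irf8 in KO cells (-1.37 ± 0.15, adjusted p = 5.4e-07) and raised it in WT cells (2.58 ± 0.15, adjusted p = 3.0e-10), and the interaction was -3.95 ± 0.21 (adjusted p = 3.1e-09). Both directions held with total-count scaling.

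The letters upstream of 5 of these genes are shown because 4 of the genes were lower in KO cells and Nfkbia was not called. Each run is the 250 bases before the RefSeq start on GRCm38.p6, written 5′ to 3′ on the strand of the gene, with capitals on matches to GAAANNGAAA (an element of the kind bound by interferon-activated factors and IRFs), GGGANNNNCC (of the kind bound by NF-kB) and TTCNNNGAA (of the gamma-activated kind), on either strand.
Cxcl10, chr5:92348890-92349139, minus strand: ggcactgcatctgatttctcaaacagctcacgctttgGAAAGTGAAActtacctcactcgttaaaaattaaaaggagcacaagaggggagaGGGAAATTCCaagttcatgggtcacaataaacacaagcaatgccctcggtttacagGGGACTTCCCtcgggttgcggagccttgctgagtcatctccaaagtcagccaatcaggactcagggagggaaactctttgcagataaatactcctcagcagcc
Rsad2, chr12:26456453-26456702, minus strand: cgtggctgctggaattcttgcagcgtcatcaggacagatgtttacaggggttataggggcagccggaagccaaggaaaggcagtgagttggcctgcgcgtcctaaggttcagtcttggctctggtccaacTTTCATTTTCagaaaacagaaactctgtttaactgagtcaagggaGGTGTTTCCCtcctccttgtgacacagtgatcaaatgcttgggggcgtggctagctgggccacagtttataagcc
Irf8, chr8:120736108-120736357, plus strand: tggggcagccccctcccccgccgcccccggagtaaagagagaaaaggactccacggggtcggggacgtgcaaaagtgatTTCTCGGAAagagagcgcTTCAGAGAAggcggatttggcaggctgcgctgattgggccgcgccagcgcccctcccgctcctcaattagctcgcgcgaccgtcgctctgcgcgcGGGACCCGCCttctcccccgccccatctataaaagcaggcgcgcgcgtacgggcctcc
Ifnb1, chr4:88522795-88523044, minus strand: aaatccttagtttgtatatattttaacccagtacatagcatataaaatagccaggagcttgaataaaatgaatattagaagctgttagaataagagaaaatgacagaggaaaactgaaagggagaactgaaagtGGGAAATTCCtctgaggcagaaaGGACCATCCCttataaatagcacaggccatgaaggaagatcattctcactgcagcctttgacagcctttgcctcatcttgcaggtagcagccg
Nfkbia, chr12:55492648-55492897, minus strand: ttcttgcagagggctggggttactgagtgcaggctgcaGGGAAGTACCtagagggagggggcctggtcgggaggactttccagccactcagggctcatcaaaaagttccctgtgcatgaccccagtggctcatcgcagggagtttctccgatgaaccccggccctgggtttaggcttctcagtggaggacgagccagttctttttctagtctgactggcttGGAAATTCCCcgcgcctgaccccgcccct

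Cxcl10 and Rsad2 each held GAAANNGAAA and GGGANNNNCC, Ifnb1 and Nfkbia held GGGANNNNCC only, and Irf8 held TTCNNNGAA at 171 and 153 bases and GGGANNNNCC at 58 bases before its start. RefSeq lists a second Irf8 start, whose 250 bases hold none of the 3. Across promoters, 9418 of the 13294 tested genes had an entry, of which 3.36% held GAAANNGAAA, 26.8% GGGANNNNCC and 7.29% TTCNNNGAA. For the 327 matched genes with a more negative KO response the shares were 6.12%, 28.7% and 8.56%, and for the 196 with a more positive one 1.02%, 26.0% and 5.10%. Of 36 matched interferon-stimulated genes 18 held GAAANNGAAA, 10 GGGANNNNCC and 11 TTCNNNGAA. Of 21 matched NF-kB genes 1 held GAAANNGAAA, 13 GGGANNNNCC and 5 TTCNNNGAA. A match is a run of letters, not a shown binding site, and a missing match says only that these letters are not in this window.

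Of 17 tested genes of antigen presentation by MHC class I 7 were lower in KO cells, beside 7.85% of all genes, and none higher (median -0.78). The KO response was more negative in 6, beside 3.32% of all genes. Nlrc5, the transactivator of MHC class I genes, stood at 104, 112 and 44.1 CPM in KO cells against 349, 419 and 661 CPM in WT cells (-2.46 ± 0.40, adjusted p = 3.1e-04; interaction -2.53 ± 0.55, adjusted p = 0.0097, and 0.0525 in a fit of these 12 libraries alone). The peptide transporter gene Tap1 stood at 354, 279 and 151 CPM in KO cells against 864, 760.0 and 909 CPM in WT cells (-1.69 ± 0.26, adjusted p = 1.6e-04; interaction -1.70 ± 0.36, adjusted p = 0.0078). B2m, the light chain, at 2438, 2803 and 2792 CPM in KO cells and 2845, 3246 and 3671 CPM in WT cells, was not called (-0.28 ± 0.18, adjusted p = 0.38), nor was H2-D1, a heavy chain with close copies among the other class I genes (-0.36 ± 0.14, adjusted p = 0.084, and 0.0332 with the replicate block). With the replicate block 11 of the 17 genes were lower.

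Among 13 tested genes of MHC class II and costimulation 4 were lower in KO cells, beside 7.85% of all genes, and none higher (median -0.71). The 4 were ligand genes of T cell costimulation or inhibition, Cd86, Cd274 and Cd80 among them, and no MHC class II gene was called. Cd86, a costimulatory ligand of T cells, stood at 66.1, 55.3 and 29.5 CPM in KO cells, against 221, 269.5 and 251 CPM in WT cells (-2.30 ± 0.24, adjusted p = 4.4e-06; interaction -1.97 ± 0.32, adjusted p = 0.0014). Cd274, which encodes the inhibitory ligand PD-L1, stood at 401, 267 and 194 CPM in KO cells against 983, 1097 and 1208 CPM in WT cells (-1.93 ± 0.29, adjusted p = 1.5e-04; interaction -2.18 ± 0.40, adjusted p = 0.0035). Cd80, the partner of Cd86, was lower by less (-0.98 ± 0.18, adjusted p = 9.7e-04). Cd83, an activation marker, was at 1829.9, 1963 and 2499 CPM in KO cells and 2080.3, 1736 and 2527 CPM in WT cells and was not called (-0.01 ± 0.25, adjusted p = 0.99).

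**Figure D3:**
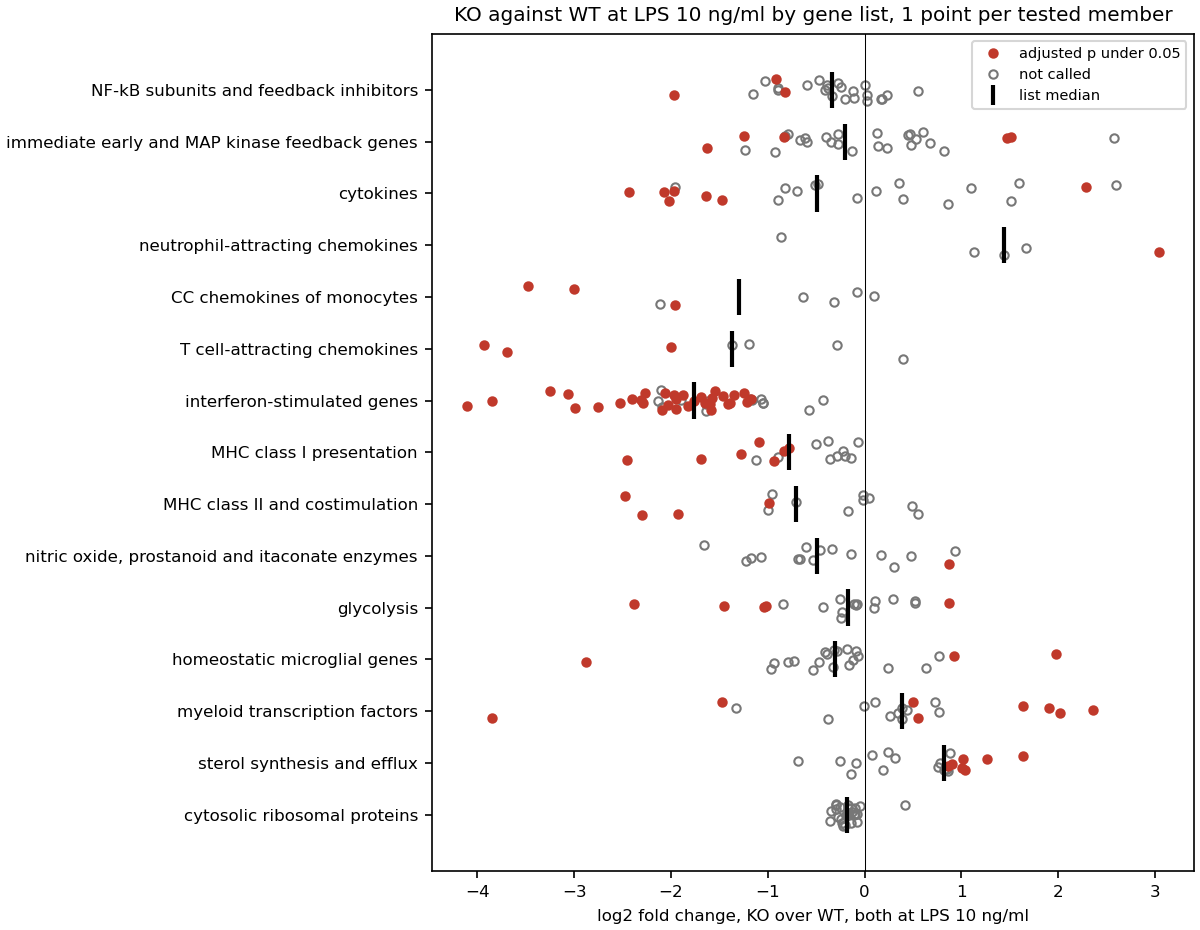
Log2 fold change of KO over WT at LPS 10 ng/ml for each tested member of 15 gene lists, with 1 row per list, filled red points for genes called (adjusted p under 0.05), open grey points for the others and a black bar at the list median. The bar of the interferon-stimulated genes lies at -1.76 with 33 red points to the left of 0, that of the sterol genes at 0.82 with 7 to the right, and no point of the ribosomal protein genes is red.

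Of 16 tested genes on a list for nitric oxide, prostanoids and itaconate 1 was higher, near the 8.05% of all genes, and none lower, beside 7.85% (median -0.50). Irg1, which makes itaconate, stood at 11081, 7349 and 5106 CPM in KO cells and 12286, 9337 and 12378 CPM in WT cells and was not called (-0.53 ± 0.56, adjusted p = 0.65). The higher gene was Hmox1, heme oxygenase, at 925, 775 and 1024 CPM in KO cells against 464, 649 and 377 CPM in WT cells (0.87 ± 0.26, edgeR adjusted p = 0.029). Heme oxygenase makes none of the products the list is named for, so no gene of those products was called. The call of Hmox1 ended without KO LPS 10 ng/ml replicate 1 (adjusted p = 0.056) or 3 (0.114), and likewise when WT LPS 10 ng/ml replicate 1 (0.0945) or 3 (0.125) was left out.

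Glycolysis genes that differed included the hexokinases. Of 18 tested, 4 were lower (7.85% of all genes were) and 1 higher (8.05%) in KO cells. The list's median was -0.17, and 0.13 with total-count scaling, beside 0.03 and 0.35 over all genes. Hk2, the inducible hexokinase, stood at 161, 86.3 and 104 CPM in KO cells against 659.9, 630.2 and 543 CPM in WT cells (-2.39 ± 0.25, adjusted p = 5.1e-06). LPS raised it in WT cells by 2.93 ± 0.26, while the KO change of 0.60 ± 0.24 was not called (adjusted p = 0.051), and the interaction was -2.34 ± 0.34 (adjusted p = 5.9e-04). Pfkp, a phosphofructokinase, stood at 111, 108 and 104 CPM in KO cells against 230.3, 225 and 208 CPM in WT cells (-1.04 ± 0.16, adjusted p = 1.7e-04). Hk1, the constitutive hexokinase, was lower too (-1.02 ± 0.19, adjusted p = 0.0011). With the replicate block 7 of the 18 were lower.

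Sterol genes were the list with the most higher members. Of 21 tested genes of sterol synthesis and efflux 7 were higher in KO cells, beside 8.05% of all genes, and none was lower, with a median of 0.82 beside 0.03. Sqle, squalene epoxidase, stood at 50.3, 65.8 and 89.2 CPM in KO cells against 33.5, 20.7 and 31.3 CPM in WT cells (1.26 ± 0.28, adjusted p = 0.0036). It fell with LPS in WT cells (-1.03 ± 0.27, adjusted p = 0.0039), while the KO change was -0.01 ± 0.27. The interaction of Sqle was not called, so a difference of these responses is not shown. Of the 21 genes 1 had a called interaction, Nr1h3, with a more positive KO response (1.96% of all genes). On the efflux side, Nr1h3, which encodes the sterol sensor LXR alpha, stood at 4.42, 6 and 8.54 CPM in KO cells against 1.82, 2.17 and 2.11 CPM in WT cells (1.63 ± 0.27, adjusted p = 3.9e-04), and its target Mylip, which directs decay of the LDL receptor, was higher by 1.03 ± 0.20 (adjusted p = 0.0013). Apoe, the main lipoprotein of microglia, overlapped between the genotypes (-0.09 ± 0.26, adjusted p = 0.92). The count of 7 was 13 with total-count scaling, 12 with the replicate block and 3 in a fit of the 6 LPS libraries alone.

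Transcription factors of myeloid cells gave 6 higher and 2 lower genes of 19 tested, beside 8.05% higher and 7.85% lower over all genes (median 0.39). Cebpa, a master factor of myeloid identity that LPS suppresses, stood at 31.8, 36.1 and 72.0 CPM in KO cells, against 9.5, 10.6 and 7.07 CPM in WT cells (2.36 ± 0.35, adjusted p = 1.5e-04). From untreated means of 503 CPM in KO cells and 414 CPM in WT cells it fell in both, with log2 changes of -3.43 ± 0.36 in KO cells and -5.51 ± 0.40 in WT cells (interaction 2.08 ± 0.48, adjusted p = 0.014, and 0.0503 without KO LPS 10 ng/ml replicate 3). Trib1, a pseudokinase that promotes the degradation of the C/EBP alpha protein, stood at 86.1, 57.2 and 65.3 CPM in KO cells against 18.5, 16.5 and 16.3 CPM in WT cells (2.02 ± 0.25, adjusted p = 2.4e-05). It rose with LPS in KO cells (1.35 ± 0.24, adjusted p = 1.6e-04) and fell in WT cells (-0.81 ± 0.24, adjusted p = 0.0086), with an interaction of 2.16 ± 0.34 (adjusted p = 0.0012). Sfpi1, which encodes PU.1, was not called (0.35 ± 0.17, adjusted p = 0.20). The count of 6 was 3 without KO LPS 10 ng/ml replicate 3 or WT LPS 10 ng/ml replicate 1, and 11 with total-count scaling.

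Of 22 tested homeostatic microglial genes 2 were higher and 1 lower, a share of calls near the 15.9% of all genes. The list's median was -0.30, and 0.05 with total-count scaling, beside 0.03 and 0.35 over all genes. Mertk, a receptor tyrosine kinase for the uptake of apoptotic cells, stood at 41.7, 27.7 and 23.1 CPM in KO cells against 193, 285 and 203 CPM in WT cells (-2.88 ± 0.26, adjusted p = 1.0e-06). It fell with LPS in KO cells by 2.22 on the log2 scale (adjusted p = 9.9e-07) and rose in WT cells by 0.71 ± 0.24 (adjusted p = 0.018), though that WT change was -0.07 with total-count scaling, and the interaction was -2.93 ± 0.34 (adjusted p = 9.1e-05). Cx3cr1, the fractalkine receptor, stood at 311, 407 and 326 CPM in KO cells against 212, 192 and 148 CPM in WT cells (0.92 ± 0.21, adjusted p = 0.0046), after falls in both genotypes from about 1045 CPM in KO cells and 1088 CPM in WT cells. Tmem119, a microglial membrane protein gene, stood at 37.7, 31.2 and 44.2 CPM in KO cells against 10.9, 4.79 and 13.1 CPM in WT cells (1.97 ± 0.45, adjusted p = 0.0050). Csf1r, the receptor for the survival factors of microglia, overlapped between the genotypes (0.24 ± 0.20, adjusted p = 0.53, and 0.0265 with total-count scaling).

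Of 19 tested phagocytic and scavenger receptors 4 were lower in KO cells, beside 7.85% of all genes, and none higher (median -0.47). Besides Mertk these were Axl, its relative, and the Fc receptor genes Fcgr4 and Fcgr1. Fcgr4 stood at 68.7, 87.7 and 22.6 CPM in KO cells against 209, 234 and 432 CPM in WT cells (-2.29 ± 0.55, adjusted p = 0.0068). The count was 2 without KO LPS 10 ng/ml replicate 3, when the calls of Axl (adjusted p = 0.176) and Fcgr1 (0.0963) ended. The Axl call also ended without KO LPS 10 ng/ml replicate 2 (0.0991) or WT LPS 10 ng/ml replicate 1 (0.0981) or 2 (0.106), and the Fcgr1 call without WT LPS 10 ng/ml replicate 3 (0.13). Among 26 tested G protein-coupled receptors 3 were lower and 1 was higher, beside 7.85% and 8.05% of all genes (median -0.38). P2ry6, the UDP receptor that triggers phagocytosis, stood at 120.4, 100.1 and 108 CPM in KO cells against 254, 218 and 267 CPM in WT cells (-1.17 ± 0.15, adjusted p = 2.9e-05). S1pr1, a receptor for sphingosine 1-phosphate, stood at 33.0, 53.4 and 71.9 CPM in KO cells against 9.91, 12.9 and 13.1 CPM in WT cells (2.14 ± 0.40, adjusted p = 9.7e-04). The 3 lower receptors were 1 without KO LPS 10 ng/ml replicate 2 or 3, and 5 with the replicate block.

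Among genes of inflammasomes and cell death the necroptosis genes Mlkl and Ripk1 were lower, with 6 lower and 1 higher of 24 tested (7.85% of all genes were lower and 8.05% higher; list median -0.50). Mlkl, the executor of necroptosis, stood at 15.5, 12.3 and 4.27 CPM in KO cells against 61.4, 64.5 and 86.9 CPM in WT cells (-2.73 ± 0.46, adjusted p = 4.5e-04). Ripk1, a kinase between survival and necroptosis, stood at 103, 88.4 and 92.7 CPM in KO cells against 192, 190.1 and 214 CPM in WT cells (-1.07 ± 0.11, adjusted p = 3.1e-06). LPS raised Ripk1 in WT cells by 0.87 ± 0.11 and did not change it by call in KO cells (-0.15 ± 0.10, adjusted p = 0.27), with an interaction of -1.02 ± 0.15 (adjusted p = 5.8e-04). The DNA sensor gene Aim2 was lower by 1.56 on the log2 scale (-1.56 ± 0.25, adjusted p = 3.3e-04). Nlrp3, the sensor of the best-known inflammasome, was above WT in every KO library, at 3187, 2759 and 3025 CPM in KO cells and 2128, 1671 and 1920.1 CPM in WT cells, and was not called (0.65 ± 0.26, adjusted p = 0.11, and 0.0364 with the replicate block). Bmf, a pro-apoptotic BCL2 family gene, was the higher one (2.30 ± 0.56, adjusted p = 0.0074). With the replicate block 11 genes were lower.

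A list of unfolded protein and heat shock genes, which also held targets of the antioxidant factor NRF2, had 4 higher and 2 lower of 19 tested. Over all genes 8.05% were higher and 7.85% lower, and the list median was 0.16. The 4 higher genes were Herpud1 (1.46) and the NRF2 targets Srxn1, Gclm (0.98) and Sqstm1 (0.61). Srxn1 stood at 619, 484 and 508 CPM in KO cells against 224, 198 and 196 CPM in WT cells (1.38 ± 0.18, edgeR adjusted p = 4.6e-05). Matrix genes had 2 lower of 24 tested, near the 7.85% of all genes, among them the collagenase gene Mmp13 (-1.57 ± 0.40, adjusted p = 0.011). The Mmp13 call ended without KO LPS 10 ng/ml replicate 3 (adjusted p = 0.0667) or WT LPS 10 ng/ml replicate 3 (0.0527). Lysosomal genes had 3 lower and 1 higher of 19 tested (7.85% and 8.05% of all genes), the higher one being Tfeb, the master regulator of lysosomal genes, averaging 8.43 ± 4.16 CPM in KO cells against 1.87 ± 0.593 CPM in WT cells (SD, n = 3 each; log2 fold change 2.16 ± 0.34, adjusted p = 2.1e-04). The count of 3 lower genes was 0 with total-count scaling, with no filter and in fits of the 4 groups or the 6 LPS libraries alone. It was also 0 without WT LPS 10 ng/ml replicate 1 or 3, and 1 when any other LPS library was left out. Cell cycle genes had 2 lower of 26, near the 7.85% of all genes. The list median was -0.21, and 0.08 with total-count scaling, beside 0.03 and 0.35 over all genes. The summed level of the cell cycle genes was 6504.4, 4094.5 and 3546 CPM in KO cells and 7812.6, 5058 and 5766 CPM in WT cells. KO replicate 3 was the lowest KO library at LPS 10 ng/ml in 24 of the 26, beside 4735 of 13294 genes overall. Untreated cells had sums of 3006, 1552 and 959 CPM in KO and 2604, 2156 and 2065 CPM in WT. KO replicate 3 thus had the lowest sum before LPS as well. None of 26 tested cytosolic ribosomal protein genes was called by edgeR (median -0.18, and 0.13 with total-count scaling, beside 0.03 and 0.35 over all genes). Their sums split by replicate number, at 8358, 3524 and 3129 CPM in KO cells and 9406, 3787 and 3962 CPM in WT cells. The main fit has no term for that number, so the absence of calls does not show equal levels.

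Outside the lists, the largest differences with separate groups named genes of other kinds. On the lower side these included Oprd1, the delta opioid receptor, with 0.325, 0.0504 and 0.136 CPM in KO cells against 5.2, 7.11 and 5.14 CPM in WT cells (-5.07 ± 0.98, adjusted p = 0.0019). WT libraries had 0 counts of Oprd1 untreated and 214 at LPS 10 ng/ml, at least 119-fold higher when 3 counts over the group are set as the floor, and KO libraries 8 at LPS 10 ng/ml and 2 untreated. Gypc, a glycophorin of the membrane skeleton (-3.92 ± 0.55, adjusted p = 8.2e-05), Fam26f (-3.86 ± 0.52, adjusted p = 5.8e-05) and Lhx2, a LIM homeobox factor (-3.52 ± 0.57, adjusted p = 3.1e-04), were lower as well. On the higher side, Cd300lb, an activating receptor of myeloid cells, stood at 11.0, 13.5 and 23.9 CPM in KO cells against 1.98, 3.67 and 2.94 CPM in WT cells (2.49 ± 0.34, adjusted p = 7.5e-05). Lyl1, a basic helix-loop-helix factor of blood cells, was higher by 2.38 ± 0.28 (adjusted p = 1.9e-05) and Osgin1, an oxidative stress gene, by 2.73 ± 0.34 (adjusted p = 2.8e-05). C130039O16Rik, a gene without a given function here, stood at 29.0, 39.6 and 56.0 CPM in KO cells, near its untreated mean of 44.5 CPM, against 8.26, 8.23 and 8.08 CPM in WT cells (2.34 ± 0.20, adjusted p = 1.0e-06; interaction 2.34 ± 0.28, adjusted p = 9.1e-05).

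LPS 10 ng/ml turned 57 genes in opposite directions in the 2 genotypes, by calls in each and by a called interaction. Of these, 32 rose in WT cells and fell in KO cells, Irf8, Mertk and Cd180 among them, and 25 fell in WT cells and rose in KO cells. Fkbpl, which encodes an immunophilin-like protein, stood at 23.4, 35.9 and 25.5 CPM in KO cells against 6.03, 5.09 and 7.8 CPM in WT cells, from untreated means of 10.1 CPM in KO cells and 10.7 CPM in WT cells. It rose in KO cells (1.49 ± 0.20, adjusted p = 9.5e-06) and fell in WT cells (-0.77 ± 0.20, adjusted p = 0.0038), with an interaction of 2.26 ± 0.29 (adjusted p = 1.8e-04). Nr1h3 did the same (0.92 ± 0.26 in KO cells and -0.84 ± 0.27 in WT cells; interaction 1.75 ± 0.38, adjusted p = 0.0094, and 0.0532 in a fit of these 12 libraries alone). Bambi, a decoy receptor of the TGF-beta family singled out after its values were seen, stood at 22.6, 12.4 and 8.47 CPM in KO cells against 143, 98.6 and 106 CPM in WT cells. Scaling bears on this group, since with total counts 13 of the 32 and 15 of the 25 still had opposite signs, Irf8, Bambi, Trib1, Fkbpl and Nr1h3 among them and Mertk not.

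**Figure D4:**
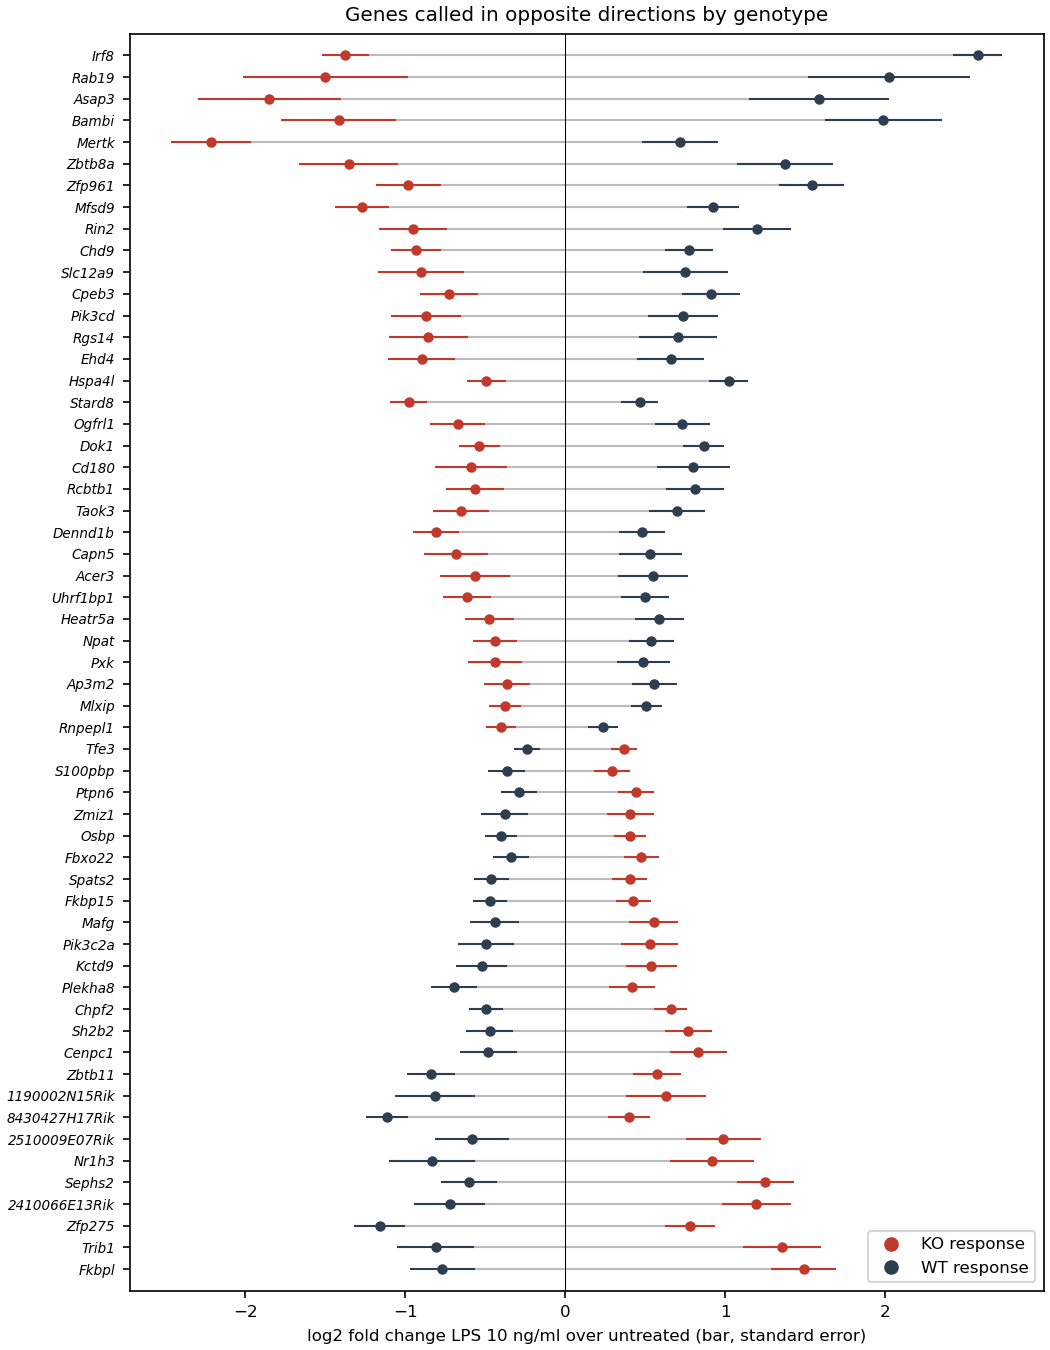
Log2 fold change of LPS 10 ng/ml over untreated cells (bars, standard error) in KO (red) and WT (dark blue) microglia for the 57 genes called in opposite directions, 1 gene per row. In the upper 32 rows the KO point lies left of 0 and the WT point right of it, and in the lower 25 rows the sides are exchanged.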

How the data were processed

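TruSeq libraries of total RNA were read on a HiSeq2000, per the labels. The submitters' processing notes name the build mm10 and the tools Bowtie2 2.1.0, HTSeq 0.5.4, DESeq, SAMtools 0.1.19, FastQC 0.10.0 and CASAVA 1.8.2. The annotation and the strand setting are not given in the sources used here, so a gene and its antisense partner cannot be told apart. The deposited values are whole read counts per gene and, for a subset of genes, a normalized signal, which the authors made by dividing counts by 1 factor per library. Raw counts were fitted with edgeR 4.0.16 (R 4.3.3) over all 24 libraries and 8 groups (TMM scaling, filterByExpr at a count of 10 and a total of 15, robust quasi-likelihood, prior count 0.125). The procedure was run on simulated counts that held no replicate effect, so that run says nothing on leaving out the replicate number. Adjusted p-values are over 13294 genes, and standard errors are the fold change over the root of the F statistic.

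Alternatives were scaling by RLE or total counts, other filters, Rn45s left out, fits of fewer libraries, replicate blocks, each library left out, DESeq2 1.42.0 and limma 3.58.1 on log2(signal + 1). Replicate numbers come from the labels. Deviations from group means over 9582 genes correlated between same-numbered KO and WT libraries at LPS 10 ng/ml by 0.832, 0.484 and 0.237. Within genotypes same-numbered libraries correlated by 0.793 to 0.930. KO 2 correlated better with WT 3 (0.731) and KO 3 with WT 2 (0.370). The numbers were taken to pair libraries only in the alternative fits with replicate blocks and in the same-number differences of the interferon-stimulated genes. The main fit held group means and no replicate term, so its calls leave this pairing out. The numbers of lower or higher genes per list under each alternative, and the scaling of opposite responses, were added after seeing the data.

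Genes named were Cd14, Tnf, Il6, Il12b, Cxcl1, Cxcl10, Ccl5, Ifnb1 and Irf8; the 10 largest called changes per direction in the genotype comparison and the interaction, with a mean of at least 5 CPM and no overlap of libraries; and up to 4 called and 2 uncalled members per list. Tlr4, Nfkbia, Gapdh, Rn45s and Bambi were added after their values were seen. The members and lists were chosen with earlier results of these data known. Intervals on counts cover counting error only. Promoter letters come from RefSeq on GRCm38.p6, gene types from GENCODE on GRCm38. Figures were drawn with matplotlib 3.10.9. Results for a few genes are not reported here.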

Additional observations from a re-analysis of the deposited data

Results flagged for a closer look

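The response to LPS 10 ng/ml differed between KO and WT cells in 702 genes by the test of the interaction itself (edgeR's quasi-likelihood test, Benjamini-Hochberg adjustment), with 3 libraries in each of the 4 groups. Among the genes described, the KO response was more negative for Irf8 (-3.95), Mertk (-2.93), Ifnb1 (-5.65), Rsad2 (-3.18), Cmpk2 (-3.33), Ccl7 (-3.35) and Cxcl11 (-5.00), on the log2 scale. It was more negative too for Il27 (-2.67), Hk2 (-2.34), Nlrc5 (-2.53), Tap1 (-1.70), Cd86 (-1.97), Cd274 (-2.18), Dusp1 (-1.96) and Ripk1 (-1.02). The KO response was more positive for Cebpa (2.08), Trib1 (2.16), Fkbpl (2.26), C130039O16Rik (2.34) and Nr1h3 (1.75).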

How the results depend on the processing

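Of the 2114 genes called between KO and WT cells at LPS 10 ng/ml, the count was 4097 with total-count scaling, 804 in a fit of the 6 LPS libraries alone, 3337 with the replicate block, and 1290 to 2194 when 1 library was left out. The 702 interaction calls were 1192 with total-count scaling, 441 in a fit of the 4 groups alone, 1280 with the replicate block, 2887 with the nested replicate block and 428 to 833 when 1 library was left out. The 5697 KO response calls were 8778 with the nested replicate block. DESeq2 called 2384 genes and 1048 interactions, and limma on the log2 signal 2204 and 798. Under the alternatives run, no called difference between the genotypes and no called interaction of a named gene changed sign. Of the alternative values of named genes, 156 lost and 55 gained a call between the genotypes, and 2386 kept their side. For the interaction 113 lost, 134 gained and 3322 kept it. Beyond the values in the text, the replicate block ended none of the calls described there. The cause of these shifts was not tested. With 3 libraries a group and 6 in the smallest fit, genes of few counts such as Cxcl5 and Oprd1 are measured with wide error.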
